A study of Macaca mulatta with 24 samples.

Results

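The enzymes that build heme, together with the carrier that brings iron into the mitochondrion for its last step, were followed in whole blood of rhesus macaques during the first week after total body irradiation. Probes were taken by the gene name in the scanner output, over 9 genes: ALAS1, ALAS2, ALAD, UROS, UROD, CPOX, PPOX, FECH and SLC25A37. Of these, 7 genes were matched by 16 of the 43603 probes, and 15 of the 16 were bright enough to be tested, among 27138 tested probes of the series. CPOX and FECH were not matched to a probe and are not analysed here. The probes tested covered 10889 named genes in all, and each gene was represented by its brightest tested probe.

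Blood was drawn from Chinese-origin animals aged 5 to 10 years that received 4 Gy to the whole body, and globin transcripts were depleted from the RNA before labelling. There were 7 arrays before irradiation (4 males and 3 females), 4 at day 3 (3 males and 1 female), 6 at day 5 (4 males and 2 females) and 7 at day 7 (4 males and 3 females). The replicate numbers 1 to 7 marked the same animals in each group, so the groups are repeated samples of 7 animals and none of the 24 arrays is labelled as a later draw from an unirradiated animal. The labels name X-rays and put the first blood at day 0, while the methods of the study name 60Co gamma rays and a draw 3 days before irradiation.

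Heme is made partly in the mitochondrion and partly in the cytosol. ALAS1 in most cells, and its X-linked counterpart ALAS2 in red cell precursors, join glycine and succinyl-CoA in the step that sets the pace of the pathway. ALAD, UROS and UROD help to build and trim the ring in the cytosol, CPOX and PPOX oxidize it in the mitochondrion, and FECH inserts the iron that SLC25A37 (mitoferrin-1) carries across the inner membrane. In blood, reticulocytes are the red cells that still hold RNA and mitochondria.

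The results turned on a few 60-base probes, shown here 5′ to 3′ so that it is clear which stretch of each transcript was read. ALAS2 had a single probe, and the UROS probes lay at different points of the gene. The design placed them, by the build named in its header (rheMac2, not checked here against a genome), at chrX:53323703-53323762 on the minus strand for ALAS2 and at chr15:22730372-22730431 on the plus strand for ALAD. The UROS probes lay on the minus strand of chromosome 9, at chr9:125388864-125388923 and at chr9:125369884-125375658. The second UROS probe spans 5775 bases of genome with 60 bases of sequence, so it crosses at least 1 splice junction. The capitals mark a TGA at the last 3 bases of the ALAD probe, in a frame with no earlier stop, and every other probe printed holds 2 forward frames with no stop.
ALAS2 probe: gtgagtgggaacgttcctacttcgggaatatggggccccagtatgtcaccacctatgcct
ALAD probe: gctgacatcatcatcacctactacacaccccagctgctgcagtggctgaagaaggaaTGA
UROS upstream probe: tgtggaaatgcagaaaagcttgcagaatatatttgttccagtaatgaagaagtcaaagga
UROS junction probe: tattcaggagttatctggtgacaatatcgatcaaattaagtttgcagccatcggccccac

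All levels below are log2 processed signals after a shift of each array to the median array, so 1 unit is a doubling, and a level of one probe is not set against that of another. Changes are a day minus pre-irradiation, with the standard error (SE) of limma, and the threshold for a call was 0.005 for p after Benjamini-Hochberg adjustment across the tested probes. The arrays were scanned in 2 sessions. Session 1 held 6 pre-irradiation and 6 day 7 arrays, and session 2 held the remaining pre-irradiation and day 7 array, both of animal 5, with all arrays of days 3 and 5. Between 48.3 and 61.2% of probes were well above background on an array, at most 26 probes were saturated, and none of the 16 probes was saturated on any array.

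The 7 genes split by course: a very deep fall of ALAS2, smaller falls of UROS and PPOX, and no call for ALAS1, ALAD, UROD or SLC25A37. At day 3, ALAS2 and PPOX were called lower and no gene higher, so 2 of 7 genes were called lower against 7.58% of the 10886 named genes tested (5.95% were called higher and 13.5% in either direction). At day 5, ALAS2, UROS and PPOX were called lower, which is 3 of 7 against 9.1% of 10889 named genes (6.24% higher and 15.3% in either direction). At day 7 the same 3 genes were called lower, against 7.17% of named genes (2.67% higher and 9.84% in either direction). The median change of the 7 genes on these days was -0.60, -0.90 and -0.72, and that of all named genes was -0.0036, -0.0048 and -0.012. The 3 comparisons share the 7 pre-irradiation arrays, so their counts are not independent of each other.

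**Figure D1:**
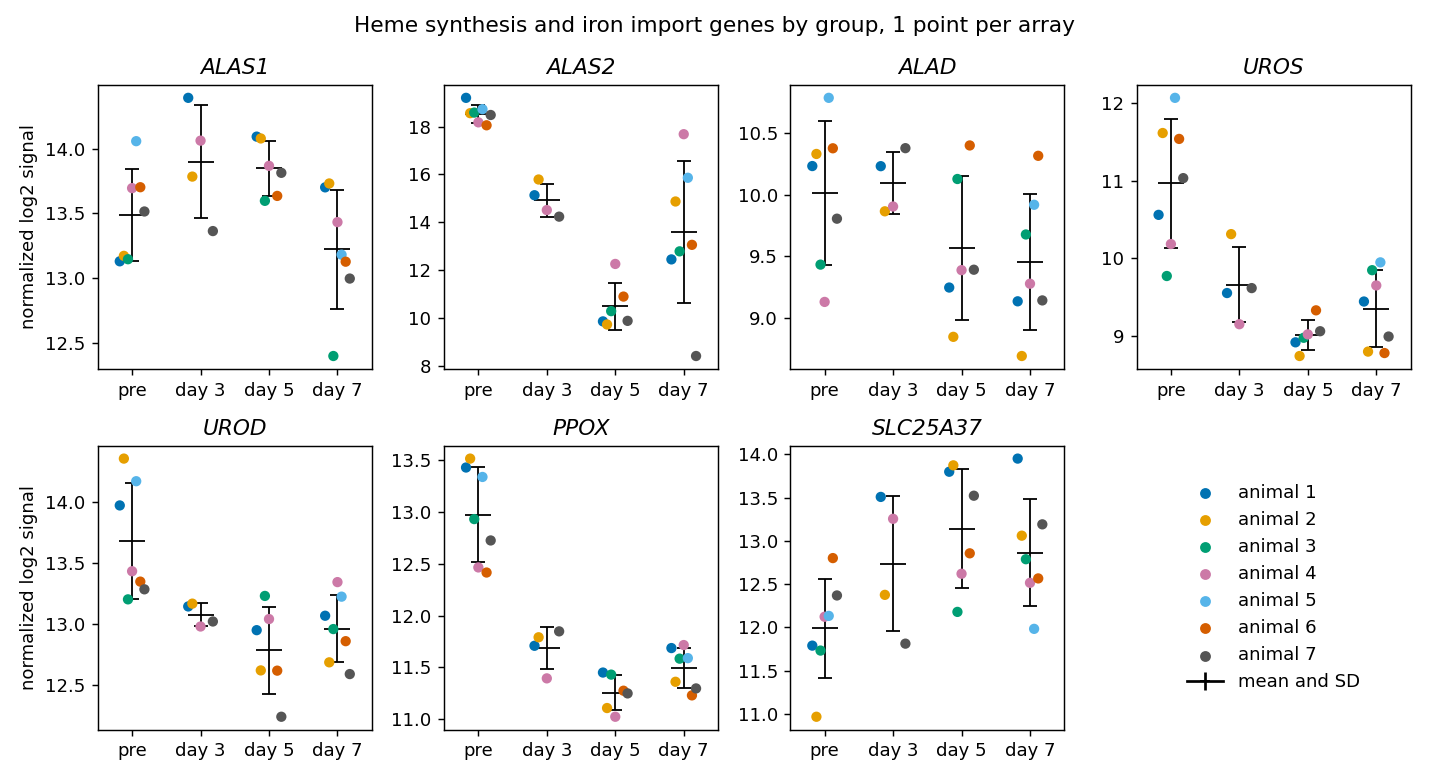
Normalized log2 signal (vertical axis, a scale of its own in each panel) of the 7 genes before irradiation and at days 3, 5 and 7, with 1 coloured point per array and animal and the mean and SD in black. ALAS2 lay between 18.05 and 19.20 before irradiation and between 8.40 and 17.68 at day 7, and PPOX at every day lay below its lowest level before irradiation.

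ALAS2, the erythroid form of the first enzyme, fell further than the other 6 genes. Before irradiation its signal was 18.05 in the lowest, 18.56 in the median and 19.20 in the highest array. At day 3 it was 15.13, 15.79, 14.51 and 14.23 in animals 1, 2, 4 and 7. At day 5 it was 9.72 in the lowest, 10.08 in the median and 12.26 in the highest of 6 arrays, and at day 7 it was 8.40, 13.05 and 17.68 in the lowest, median and highest of 7. Every array after irradiation was below every array before it, on all 3 days. Such a separation downward was seen in 12.1, 8.3 and 6.0% of named genes at days 3, 5 and 7. The ALAS2 probe stayed well above background on all 24 arrays.

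The mean ALAS2 signal was 12.4-fold lower at day 3 (log2 change -3.63, SE 0.30, n = 4 and 7, limma adjusted p = 1.87e-05). It was 267-fold lower at day 5 (log2 change -8.06, SE 0.36, n = 6 and 7, limma adjusted p = 6.92e-09), and 31.1-fold lower at day 7 (log2 change -4.96, SE 1.01, n = 7 and 7, limma adjusted p = 0.00229). Counted from the lowest change, ALAS2 stood in place 50 of 10886 named genes at day 3, 6 of 10889 at day 5 and 21 at day 7. In a bulk sample, fewer cells of a type and less RNA per cell cannot be told apart.

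The day 3 call of ALAS2 was lost in fits of all 4 groups with 1 shared variance (limma adjusted p = 0.00832), also with scan session as a block (log2 change -4.86, limma adjusted p = 0.0298). With slide as a block in such a fit, none of the calls of ALAS2, UROS and PPOX at days 3 and 5 passed (ALAS2 -5.40 and -10.5, limma adjusted p = 0.0643 and 0.0258). No day 5 array shared a slide with a pre-irradiation array, and day 3 arrays did so only with that of animal 5. Within session 2, the means of days 3 and 5 minus the only pre-irradiation array scanned with them were -3.81 and -8.25, with no test since there was 1 such array. At day 7 the change within session 1, which is also the set without animal 5, was -5.30 (limma adjusted p = 0.00455, n = 6 and 6). The day 7 call was lost with quantile normalization (-4.53, limma adjusted p = 0.00639), and without animal 1, 2, 3 or 6 the change was -4.66, -5.17, -4.82 and -4.95 with limma adjusted p of 0.0134, 0.0072, 0.0111 and 0.0077. Without animal 4 or 7 the change was -5.70 or -4.10, the widest range over animals left out, and the call held (limma adjusted p = 0.000877 and 0.00256).

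Day 7 set the animals apart. As a percentage of the animal's own pre-irradiation signal, ALAS2 at day 5 was 0.153% in animal 1, 0.218% in animal 2, 0.316% in animal 3, 1.65% in animal 4, 0.697% in animal 6 and 0.256% in animal 7. At day 7 it was 0.925%, 7.73%, 1.79%, 70.9%, 13.7%, 3.12% and 0.0924% in animals 1 to 7. Animal 4 was thus close to its own starting level while animal 7 was lower than at day 5. From day 5 to day 7 the signal was higher in 5 of 6 animals, by up to 5.43 log2 units, and lower in animal 7, by 1.47. In these animals the day 5 array was scanned in session 2 and the day 7 array in session 1. Day and session cannot be told apart in that step.

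The SD of ALAS2 over arrays grew with the days, from 0.38 in the pre-irradiation group through 0.69 and 0.97 to 2.96 on the last. Among 10658 named genes with a value on every array, its SD stood in place 4918 from the largest before irradiation and in place 15 at day 7, where the median gene had an SD of 0.45. PPOX was the opposite, with an SD of 0.20 at day 7 in place 10154.

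The levels of ALAS2 ordered as pre-irradiation, day 3, day 7 and day 5, from highest to lowest mean, and neighbours in that order after pre-irradiation were not separated by the test. Day 5 minus day 3 was -4.43 with no overlap of arrays, as in 2.67% of named genes, and missed the threshold (limma adjusted p = 0.00842). Day 7 minus day 3 was -1.33 (limma adjusted p = 0.517), with a 95% confidence interval from -4.22 to 1.56. Day 7 was 3.11 higher than day 5 (limma adjusted p = 0.14), with an interval from 0.68 to 5.53. With 1 animal left out, day 7 minus day 3 ran from -2.15 to -0.69 and day 7 minus day 5 from 2.73 to 3.85.

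**Figure D2:**
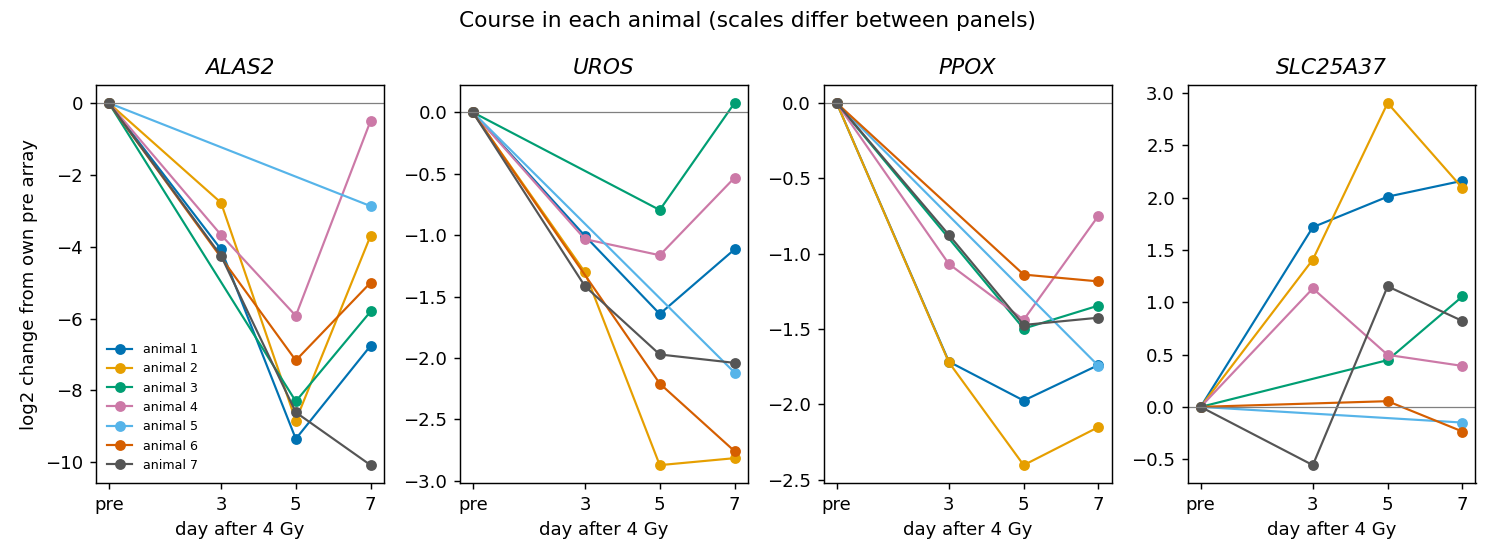
Change of ALAS2, UROS, PPOX and SLC25A37 in log2 units from each animal's own pre-irradiation array (vertical axis, scales differ between panels) against the day after 4 Gy, with 1 line per animal. ALAS2 in animal 4 ended 0.50 below its start and in animal 7 10.1 below it, while PPOX ended between 0.75 and 2.15 below in all 7 animals.

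ALAS1, the form used by cells in general, was not called on any day. Its bright probe read 13.13, 13.52 and 14.06 in the lowest, median and highest array before irradiation. It read 14.39, 13.78, 14.06 and 13.36 in animals 1, 2, 4 and 7 at day 3. It read 13.60, 13.84 and 14.09 at day 5 and 12.40, 13.18 and 13.73 at day 7, and the groups overlapped throughout.
The change was 0.41 at day 3 (SE 0.24, limma adjusted p = 0.196), 0.36 at day 5 (SE 0.18, limma adjusted p = 0.13) and -0.26 at day 7 (SE 0.22, limma adjusted p = 0.4). The 95% confidence intervals ran from -0.11 to 0.93, from -0.02 to 0.74 and from -0.73 to 0.21, so a change of ALAS1 as large as the fall of ALAS2 was outside them on each day. In all 6 animals with both arrays the signal at day 7 was lower than at day 5, by a median of 0.47 (limma adjusted p for day 7 against day 5 = 0.119). Each of these day 5 arrays was scanned in session 2 and each day 7 array in session 1. Day and session cannot be told apart in that step. The sign of the day 5 and day 7 changes turned under other scalings, to -0.14 with normexp background at day 5 and 0.021 with quantile normalization at day 7. A second ALAS1 probe was well above background on 7 of 24 arrays and was not called on any day either.

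ALAD, which joins a pair of ALA molecules into porphobilinogen, was not called on any day. It read 9.13, 10.23 and 10.79 in the lowest, median and highest array before irradiation, and 10.23, 9.87, 9.91 and 10.38 in animals 1, 2, 4 and 7 at day 3. At day 5 it read 8.85, 9.39 and 10.40, and at day 7 it read 8.69, 9.28 and 10.32. The changes were 0.08, -0.45 and -0.56 (SE 0.29, 0.30 and 0.29, limma adjusted p = 0.85, 0.271 and 0.162), with all groups overlapping. With normexp background the signs at days 5 and 7 turned, to 0.15 and 0.22.
Against their own day 3 arrays, the 4 animals with both arrays were 0.52 to 1.02 lower at day 5 and 0.63 to 1.23 lower at day 7. Their day 3 arrays were scanned in session 2 and their day 7 arrays in session 1, so day and session cannot be told apart there. The only day 7 array of session 2 minus the day 3 mean was -0.18. The second ALAD probe gave changes of 0.23, -0.33 and -0.71, of which the day 7 value was nearest to the threshold (limma adjusted p = 0.041).

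UROS, which closes the tetrapyrrole ring, was called lower at days 5 and 7. Its brightest probe read 9.77, 11.03 and 12.07 in the lowest, median and highest array before irradiation. At day 3 it read 9.55, 10.31, 9.15 and 9.62 in animals 1, 2, 4 and 7, of which 3 were below all pre-irradiation arrays. At day 5 it read 8.74, 8.999 and 9.33, below all pre-irradiation arrays, and at day 7 it read 8.78, 9.44 and 9.95, with 5 of 7 arrays below. A full separation downward at day 5 was seen in 8.3% of named genes.
UROS was 3.89-fold lower at day 5 (log2 change -1.96, SE 0.33, limma adjusted p = 0.000486) and 3.06-fold lower at day 7 (log2 change -1.62, SE 0.34, limma adjusted p = 0.00293). At day 3 the change was -1.31 (SE 0.42, limma adjusted p = 0.0292), which is not a call. Blocking on scan session over the 4 groups together gave -2.16, which passed (limma adjusted p = 0.00331).

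The printed UROS probes, which read other stretches of the gene, moved in the same way. The design assigns the upstream probe to another transcript record than the junction probe and the brightest probe. The junction probe changed by -1.50, -2.22 and -1.88 at days 3, 5 and 7 (limma adjusted p = 0.0161, 0.000338 and 0.00154). The upstream probe changed by -1.71, -2.31 and -2.40 (limma adjusted p = 0.0152, 0.000549 and 0.000881), and was well above background on 22 of 24 arrays. So all 3 UROS probes were called lower at days 5 and 7 and none at day 3, where 9.58, 7.27 and 8.02% of all probes tested were called lower.
The day 7 call of the brightest probe did not survive a block for the animal (log2 change -1.62, limma adjusted p = 0.00906). It was lost within session 1, the set without animal 5 (-1.53, limma adjusted p = 0.00578), and without animal 1 (-1.70), 2 (-1.42), 6 (-1.42) or 7 (-1.54), with limma adjusted p from 0.00913 to 0.0156. With no filter on dim probes the day 7 change was -1.34 and did not pass (limma adjusted p = 0.0181). With normexp background neither the day 5 nor the day 7 change passed (-1.60 and -1.27, limma adjusted p = 0.0122 and 0.0337). By the brightest probe animal 3 had the lowest UROS signal before irradiation, and its day 7 signal was 0.08 above it. By the junction and upstream probes the day 7 change of animal 3 was -0.64 and -0.84.

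UROD, which trims the side chains of the ring, moved the same way by less and was not called. Its brightest probe read 13.20, 13.43 and 14.35 in the lowest, median and highest array before irradiation, and 13.14, 13.17, 12.98 and 13.02 in animals 1, 2, 4 and 7 at day 3. At day 5 it read 12.24, 12.78 and 13.23, and at day 7 it read 12.59, 12.96 and 13.34. By this probe all 4 day 3 arrays, 5 of 6 day 5 arrays and 5 of 7 day 7 arrays were below every pre-irradiation array. A full separation downward at day 3 was seen in 12.1% of named genes. For the other UROD probes 0 of 4 day 3 arrays were below every pre-irradiation array. At day 5 the count for these probes was 4 and 3 of 6 arrays, and at day 7 it was 3 and 4 of 7.
The changes of the brightest probe were -0.60, -0.90 and -0.72 (SE 0.24, 0.23 and 0.21, limma adjusted p = 0.0705, 0.00837 and 0.0198). The other UROD probes changed by -0.78 and -0.77 at day 5 (limma adjusted p = 0.0138 and 0.023), close to the brightest. In the fit of all 4 groups with 1 shared variance the day 5 change of the brightest probe passed (limma adjusted p = 0.00135).

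PPOX, which oxidizes protoporphyrinogen, was the only gene besides ALAS2 called on all 3 days. It read 12.41, 12.93 and 13.51 in the lowest, median and highest array before irradiation. It read 11.71, 11.79, 11.40 and 11.85 in animals 1, 2, 4 and 7 at day 3. It read 11.03, 11.26 and 11.45 at day 5 and 11.23, 11.58 and 11.72 at day 7, so no array of any day reached the lowest pre-irradiation array. Among named genes, 12.1, 8.3 and 6.0% were separated downward in this way at days 3, 5 and 7.
PPOX was 2.44-fold lower at day 3 (log2 change -1.29, SE 0.24, limma adjusted p = 0.00232), 3.28-fold lower at day 5 (log2 change -1.72, SE 0.20, limma adjusted p = 3.47e-05) and 2.78-fold lower at day 7 (log2 change -1.48, SE 0.20, limma adjusted p = 9.37e-05). A second PPOX probe changed by -1.22, -1.63 and -1.38, called on each day (limma adjusted p = 0.00445, 0.000117 and 0.000236), and another PPOX probe was well above background on 1 array and was not tested.

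The day 3 call of PPOX was lost with normexp background, as were its calls at days 5 and 7 (limma adjusted p = 0.0602, 0.00525 and 0.0247). At day 3 it was also lost with the animal as a block (log2 change -1.35, limma adjusted p = 0.0106) and without animal 1, 2, 3, 4 or 7 (log2 changes of -1.22, -1.23, -1.29, -1.27 and -1.38, limma adjusted p from 0.00506 to 0.0129). The day 7 call held within session 1 (-1.43, limma adjusted p = 0.000696) and without any single animal (-1.60 to -1.36).

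SLC25A37, the mitochondrial iron importer, had mean levels above pre-irradiation on all 3 days and was not called. Its brightest probe read 10.97, 12.12 and 12.80 in the lowest, median and highest array before irradiation. At day 3 it read 13.51, 12.38, 13.25 and 11.81 in animals 1, 2, 4 and 7. At day 5 it read 12.18, 13.19 and 13.87 and at day 7 it read 11.98, 12.79 and 13.95, with 4 of 6 and 3 of 7 arrays above every pre-irradiation array.
The changes were 0.75, 1.15 and 0.88 (SE 0.37, 0.33 and 0.30, limma adjusted p = 0.136, 0.014 and 0.0424), so none was called. The second probe changed by 0.96, 1.25 and 1.12 (limma adjusted p = 0.109, 0.0269 and 0.032). Within animals the brightest probe was higher than the animal's own pre-irradiation level in 3 of 4 at day 3, 6 of 6 at day 5 and 5 of 7 at day 7. The second probe was higher in 3 of 4, 5 of 6 and 5 of 7. With all probes kept, bright or dim, the day 5 change of the brightest probe was 1.45 and passed (limma adjusted p = 0.00377). That setting moved the median of the probes by 0.32 at day 5, against 0.02 in the values above.

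**Figure D3:**
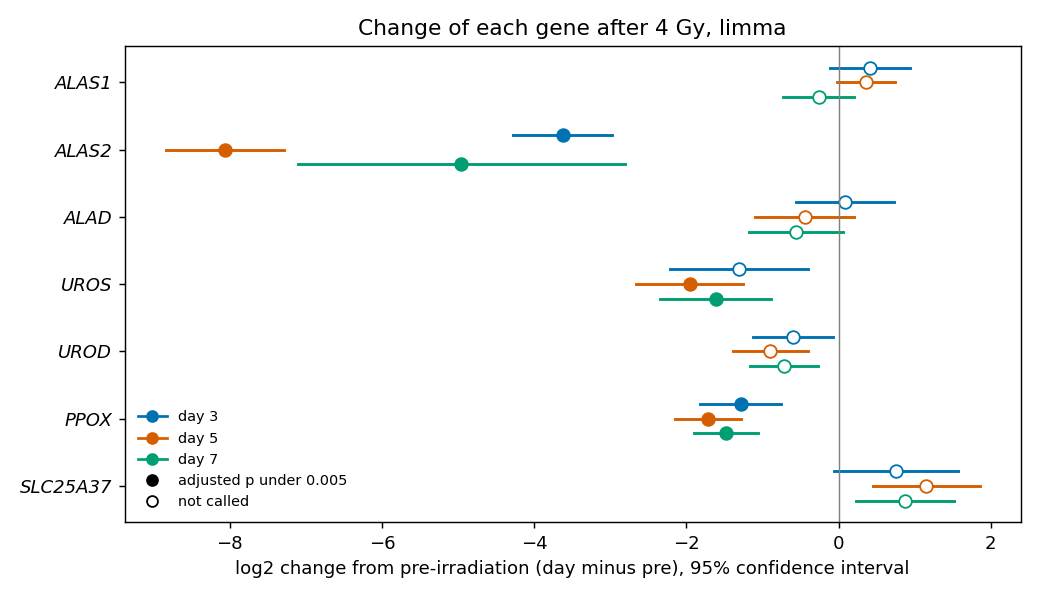
Log2 change from pre-irradiation (horizontal axis) with its 95% confidence interval for each gene at days 3, 5 and 7, from limma, with filled points for an adjusted p under 0.005. ALAS2 lies far to the left on all 3 days, UROS and PPOX lie between -1.29 and -1.96, and SLC25A37 lies to the right of 0 without a call.

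At day 7 males and females were compared, since that day held 4 males and 3 females. SLC25A37 changed by 1.43 in males and by 0.15 in females, a difference of -1.28 (SE 0.55, limma adjusted p = 0.547), and its second probe differed by -1.60. ALAS2 changed by -4.19 in males and -5.98 in females, a difference of -1.80 (SE 2.05, limma adjusted p = 0.824). None of the 7 genes, and 0 of the 26963 probes in that fit, passed an adjusted p under 0.05 by limma, while 2359 probes had an unadjusted p under 0.05.

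Between the irradiated days no gene was called by limma. Against day 3, day 5 had 0 of 7 genes called (0.0367% of named genes) and 3 of 7 at an unadjusted p under 0.05, where 11.1% of named genes had such a p. Day 7 against day 3 had 0 of 7 called (1.63% of named genes) and 2 of 7 at an unadjusted p under 0.05, against 34.2% of named genes. Day 7 against day 5 had 0 of 7 called (0.00918%) and 2 of 7 at an unadjusted p under 0.05, against 2292 of 10889 named genes.

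The remaining genes that serve heme synthesis were read from a list of partners, mainly transporters of the mitochondrial membranes and factors that steer the first and last steps. Of 13 partners tested, 7 were lower and 1 higher at day 3, 7 lower and 1 higher at day 5, and 6 lower and 0 higher at day 7. Of all named genes, 7.58, 9.1 and 7.17% were called lower and 5.95, 6.24 and 2.67% higher. The partners' median change was -0.91, -0.84 and -0.52, and -2.35, -2.76 and -2.34 in the authors' normalized values, which held 8 of the 13. The partner called higher was FLVCR2, a choline and heme transporter family member, with changes of 1.91, 1.23 and 1.14 (limma adjusted p = 0.00112, 0.00212 and 0.00749). With normexp background no partner was called higher. Across the alternative scalings 2 to 7, 4 to 7 and 5 to 6 partners were called lower on the 3 days.

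SLC25A39, the mitochondrial glutathione importer, fell furthest among the partners, with changes of -3.42 at day 3, -4.76 at day 5 and -3.73 at day 7 (limma adjusted p = 0.000174, 8.87e-08 and 0.000223). FAM210B, a mitochondrial protein that aids iron import and ferrochelatase in red cell precursors, changed by -2.71, -3.68 and -2.92 (limma adjusted p = 0.000356, 2.32e-06 and 2.95e-05).
SLC25A38, which carries glycine into the mitochondrion for ALAS2, changed by -2.52, -2.87 and -2.39 (limma adjusted p = 0.0003, 3.45e-06 and 2.57e-05). SLC48A1, a heme transporter of endosomes and lysosomes, changed by -2.26, -2.75 and -2.77 (limma adjusted p = 0.00122, 4.2e-05 and 8.81e-05). In each of these 4 genes every array of every day lay below every pre-irradiation array. Such a separation downward was seen in 12.1, 8.3 and 6.0% of named genes at days 3, 5 and 7. These genes were named for their large changes, so their separation is not a further result. SLC25A28 (mitoferrin-2), the widely expressed counterpart of SLC25A37, changed by -0.09, -0.05 and 0.05 and was not called.

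Heme breakdown was read from 4 genes, of which 1, 1 and 2 were called lower and none higher, against 7.58, 9.1 and 7.17% of named genes called lower. At day 7 the count was 1 with quantile normalization, with normexp background and with no filter on dim probes. BLVRB, a biliverdin reductase abundant in red cells, changed by -2.08, -3.16 and -2.85 (limma adjusted p = 0.000473, 1.96e-06 and 2.6e-05). HMOX2, the constitutive heme oxygenase, changed by -0.04 and -0.57 at days 3 and 5 without a call and by -0.90 at day 7 (limma adjusted p = 0.00156). HMOX1, the inducible heme oxygenase, changed by 0.34, -0.85 and -0.59, and BLVRA by 0.25, 0.34 and -0.19, with no call.

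Iron-sulfur cluster assembly, the other main use of mitochondrial iron, was read from 9 genes. Of these 4, 3 and 2 were called lower at days 3, 5 and 7, and none higher, with medians of -0.82, -0.77 and -0.47, against 7.58, 9.1 and 7.17% of named genes called lower. Across the alternative scalings 2 to 4, 2 to 3 and 2 were called lower, and the day 7 median ran from -0.91 to -0.20. ISCA1, a late-acting scaffold, changed by -4.20, -6.11 and -5.18 (limma adjusted p = 2.69e-05, 3.44e-08 and 2.24e-05). GLRX5, a mitochondrial glutaredoxin needed for heme synthesis in red cells, changed by -4.37, -5.70 and -4.40 (limma adjusted p = 1.62e-05, 3.11e-08 and 4.21e-05).
The other named members moved less. BOLA3 changed by -1.52, -1.04 and -1.10 and FDX1 by -0.89, -0.56 and -0.04, both called at day 3 alone (limma adjusted p = 0.00435 and 0.00307). NFU1 changed by -0.82, -0.81 and -0.47 with no call.

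Regulators of heme synthesis were read from 8 genes, of which 2, 2 and 3 were called lower and none higher, against 7.58, 9.1 and 7.17% of named genes called lower. Across the alternative scalings 1 to 2, 2 and 1 to 3 were called lower. KLF1, an erythroid transcription factor, changed by -5.28, -8.07 and -5.53 (limma adjusted p = 0.000254, 2.1e-08 and 0.000966), and was well above background on 3 of 6 arrays at day 5 and 5 of 7 at day 7. TAL1, another factor of the red cell lineage, changed by -1.12 at day 3 without a call (limma adjusted p = 0.00665), by -2.16 at day 5 and -2.04 at day 7 (limma adjusted p = 1.91e-06 and 2.17e-05). GATA1, which drives ALAS2, changed by 0.66 at day 3 and -1.09 at day 5 without a call, and fell by 1.84 at day 7 (limma adjusted p = 0.000623).
ACO1, which acts as an iron sensor, fell by 0.76 at day 3 (limma adjusted p = 0.00488) and changed by -0.97 and -0.02 at the later days. NFE2 changed by -0.34, -0.72 and -1.03 with no call.

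**Figure D4:**
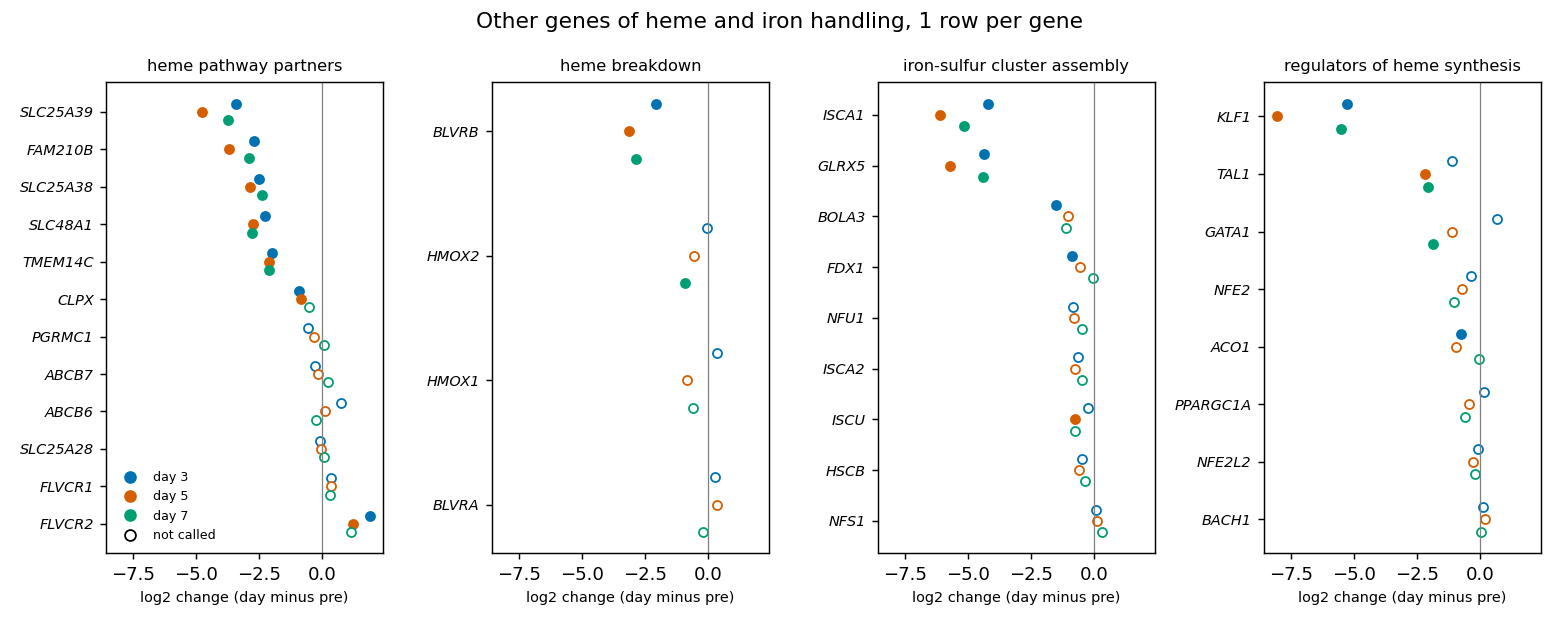
Log2 change from pre-irradiation (horizontal axis, same scale in all panels) of the genes reported from 4 lists, 1 row per gene, with days 3, 5 and 7 in colour and filled points for an adjusted p under 0.005 by limma. SLC25A39, BLVRB, ISCA1, GLRX5 and KLF1 lie far to the left of most genes of their lists.

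Markers of the red cell lineage moved with these genes. Of 22 erythroid markers tested, 15, 18 and 17 were called lower at days 3, 5 and 7 and none higher, with medians of -3.12, -4.48 and -3.58, against 7.58, 9.1 and 7.17% of named genes called lower. Across the alternative scalings 10 to 16, 12 to 18 and 12 to 17 were called lower, and with normexp background the medians were -1.97, -2.20 and -2.41. EPB42, TRIM58 and HBM changed by -8.16, -6.06 and -6.005 at day 5 (limma adjusted p = 1.03e-07, 2.63e-07 and 3.17e-07), with EPB42 well above background on 4 of 6 arrays. SLC4A1, the anion exchanger of the red cell membrane, was not well above background on any day 5 array and was at least 43.4-fold lower there (limma adjusted p = 1.4e-07). Members of the list differed in direction. RHAG, a membrane protein of the Rh complex, changed by 2.17 at day 3 (limma adjusted p = 0.00556, higher in 4 of 4 animals), 0.30 at day 5 and -0.50 at day 7. In the authors' normalized values its day 3 change was 2.21 and passed (limma adjusted p = 0.00326). ANK1, an ankyrin of the red cell membrane, changed by 1.08 at day 3 (limma adjusted p = 0.00831, higher in 4 of 4 animals), -0.53 at day 5 and -0.97 at day 7.
The mean level of the 22 markers ran from 11.63 to 12.96 over the arrays before irradiation, from 9.42 to 10.37 at day 3, from 7.80 to 8.70 at day 5 and from 7.39 to 11.02 at day 7. At day 7 the 7 animals stood in the same order by this mean and by ALAS2, from animal 7 through 1, 3, 6, 2 and 5 to animal 4. ALAS2 is not among the 22 markers. The same order held for 0 of 7 animals' places in UROS, 3 of 7 in UROD and 1 of 7 in PPOX.

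**Figure D5:**
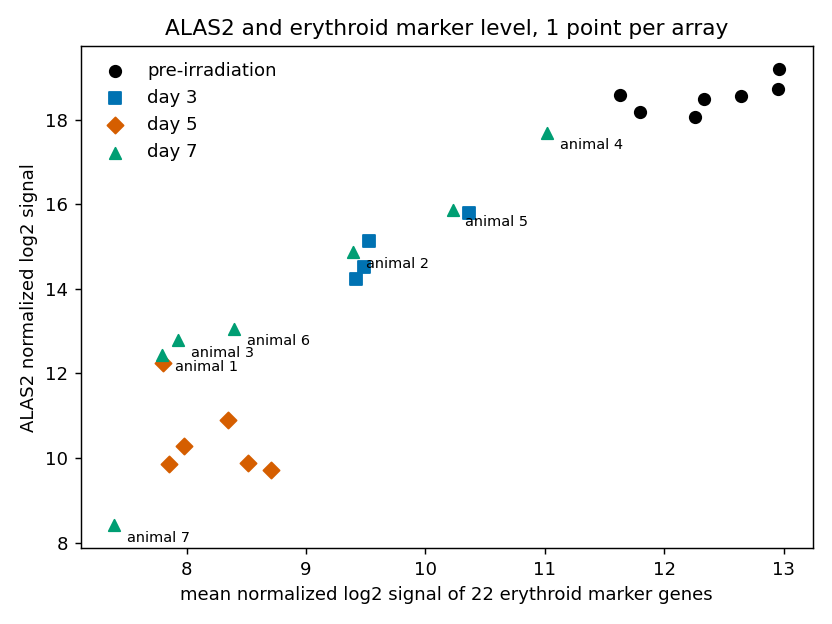
ALAS2 signal (vertical axis) against the mean signal of 22 erythroid marker genes (horizontal axis), both normalized log2, with 1 point per array and the animal number beside each day 7 array. The day 7 arrays run from animal 7, at 7.39 and 8.40, to animal 4, at 11.02 and 17.68, the array nearest to the pre-irradiation arrays.

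Markers of other blood cells moved as well, and their part in the changes above was not tested. Of 9 platelet markers, 9, 1 and 0 were called higher at days 3, 5 and 7, and their mean level ran from 9.36 to 10.60 before irradiation and from 12.34 to 13.27 at day 3. Of 6 B-cell markers, all 6 were called lower on each day, their mean falling from a range of 10.95 to 11.40 to one of 7.24 to 8.66 at day 3. Of 9 neutrophil markers, 2, 2 and 1 were called higher, with mean levels of 11.99 to 13.31 before irradiation and 13.15 to 13.93 at day 5. With normexp background these neutrophil counts were 1, 0 and 0, and with quantile normalization the day 5 count was 4. Normexp background gave 6, 0 and 0 platelet markers higher on the 3 days (2 at day 5 with quantile normalization) and 5, 4 and 5 B-cell markers lower on the 3 days. Of all named genes, 5.95, 6.24 and 2.67% were called higher on the 3 days and 7.58, 9.1 and 7.17% lower.
Of 6 monocyte markers, 2, 2 and 0 were called higher, of 7 T-cell markers 1, 1 and 0 were called lower, and of 6 NK-cell markers none was called on any day. With normexp background 0 monocyte markers were called higher at day 5 and 0 T-cell markers lower on any day, and with quantile normalization 2 monocyte markers and 1 NK-cell marker were called higher at day 7.

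Over the 24 arrays the patterns most like ALAS2 among the genes reported were PAQR9 (Pearson r = 0.974), HBA2 (0.968), HBA1 (0.959) and ACSL6 (0.954), out of 10658 named genes. With group means removed the same genes had r of 0.913, 0.936, 0.908 and 0.843. HBA1 and HBA2 are near-identical globin transcripts, whose probes may share signal and on which the depletion step acts. The other heme genes were less alike: PPOX had r = 0.82, UROS 0.772 and UROD 0.767 with ALAS2, but 0.227, 0.234 and 0.417 with group means removed. ALAD had r = 0.349, ALAS1 -0.107 and SLC25A37 -0.657.
The patterns most like SLC25A37 were VPS37C (0.898), PHF21A (0.884), BAZ2B (0.875), IL1RAP (0.859) and UBR2 (0.858). Those most like ALAS1 were MKLN1 (0.873), LAMP2 (0.867), TNFRSF1A (0.866), JAML (0.86) and MEPCE (0.854). The arrays are repeated samples of 7 animals and share slides, so these values describe the arrays only.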

How the data were processed

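Globin-depleted blood RNA was read on one-colour Agilent arrays of a rhesus design (the methods of the study name a human array). The authors deposited scanner output, in which the processed signal is an intensity on a linear scale with local background subtracted and gradients removed; the labels name Feature Extraction 10.7 and the file headers 12.0.2.2. The deposited series matrix holds log2 values, which matched the log2 processed signal plus 1 constant per array over 18497 probes.

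Here log2 processed signals were shifted to the median array (shifts from -2.03 to 0.87) and probes were tested where 4 or more of the 24 arrays were well above background. Each pair of groups was fitted alone with limma 3.58.1 in R 4.3.3, two-sided. The test was checked on simulated data with independent normal values and, for each probe, the same SD in every group. The simulation held no effect of animal, slide or scan session, so it does not cover those features of the data. Of all probes, 23054 carried a name, 885 were named by accession and 19664 had none. Python 3.11.15 made the summaries and figures.

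Same-numbered arrays deviated together in every pair of groups (r from 0.129 to 0.651 after group means were removed, medians for different numbers below 0), and the sexes agreed by number, so numbers were taken as animals. Animals were the replicates, and no 2 arrays correlated above 0.978. Precision is limited by how many arrays there were. The genes and lists were chosen with earlier results of these data known. From each list the 5 genes with the largest absolute change on any day were named, and cell type lists were given by counts; FLVCR2, SLC25A28, RHAG and ANK1 fall outside this rule and were chosen after their values were seen. Some genes that the rule names, and some probe sequences, are not reported here, though the counts and means over lists include them. For ALAS2, ALAS1 and SLC25A37 the 5 genes with the highest Pearson r over the arrays were named. Alternatives were 3 scalings and backgrounds, the authors' values, 2 filters, mean over probes, leaving out each animal, blocks for animal, slide and scan session, 1 fit of all groups, and an adjusted p under 0.05.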

Additional observations from a re-analysis of the deposited data

How the results depend on the processing

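The falls of ALAS2, UROS and PPOX from pre-irradiation kept their direction under every alternative run. The count of changed heme genes at day 3 (2) was 1 with normexp background, with no filter on dim probes, with the replicate block and in 1 fit of all groups, 0 with a slide block, 3 at an adjusted p under 0.05 (with UROS), and 1 to 2 when 1 animal was left out; with a session block it was 2, UROS and PPOX in place of ALAS2 and PPOX. At day 5 (3) it was 1 with normexp background, 0 with a slide block, 5 at an adjusted p under 0.05, 4 with no filter (with SLC25A37) and in 1 fit of all groups (with UROD), and 3 to 3 with 1 animal left out. At day 7 (3) it was 1 with normexp background, 2 with quantile normalization (without ALAS2), with no filter and within session 1 (both without UROS), 5 at an adjusted p under 0.05 and 1 to 3 with 1 animal left out (1 without animal 1, 2 or 6). The share of named genes at an adjusted p under 0.05 is not given here. At an unadjusted limma p under 0.05, 4, 5 and 5 of 7 genes passed at days 3, 5 and 7, against 46.9, 43.9 and 38.2% of named genes. Day 5 against day 3 (0) had 1 with the authors' normalized values, with probes well above background on all 24 arrays and at an adjusted p under 0.05, that gene being ALAS2. Normexp called 318, 265 and 346 probes at days 3, 5 and 7, against 3652, 4543 and 2951, and the slide block called 443, 42 and 3670. No day 5 array shared a slide with a pre-irradiation array. Day 3 arrays did so only on slide 6, with the array of animal 5. A slide block therefore tied days 3 and 5 to pre-irradiation through that slide alone. The cause of the different counts was not tested.

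With the replicate block for the paired animals the counts were 1 at day 3 (without PPOX), 3 at day 5 and 2 at day 7 (without UROS), and no other call of the 7 genes against pre-irradiation changed. No sex comparison under alternatives was run.

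Reversed values all concern changes that were not called. At day 3 against pre-irradiation, ALAD was -0.49 with a slide block, -0.54 with a session block and -0.048 to 0.21 with 1 animal left out, and ALAS1 was -0.039 with a slide block. At day 5, ALAS1 was -0.14 with normexp and -0.40 with a slide block, and ALAD 0.15 with normexp. At day 7, ALAS1 was 0.021 with quantile normalization and 0.0085 with no filter, and ALAD 0.22 with normexp. For day 5 against day 3, ALAS1 was 0.083 with quantile normalization, 0.079 with no filter, 0.13 as a mean over probes, 0.062 with the replicate block and -0.22 to 0.062 with 1 animal left out, and SLC25A37 -0.20 with normexp. For day 7 against day 3, UROD was 0.12 with quantile normalization, and with a slide block ALAS2, UROS, UROD, PPOX and SLC25A37 were 0.45, 0.82, 0.34, 0.10 and -0.037; with a session block UROS, UROD, PPOX and SLC25A37 were 0.54, 0.26, 0.038 and -0.24, and with 1 animal left out UROS ran from -0.53 to 0.0034 and SLC25A37 from -0.24 to 0.36. For day 7 against day 5, normexp gave ALAS1 0.0049, ALAD 0.072 and SLC25A37 0.43, the slide block ALAS1 0.14 and ALAD 0.083, and the session block ALAD 0.50.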
